A study of Homo sapiens with 4 samples.

Results

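Voltage-gated channels and their relatives were compared between wild-type (WT) and Helz-null cells through the transcripts of their genes. The genes were taken by symbol from the deposited count table: the KCN potassium channel genes, the SCN genes of sodium channel alpha and beta subunits, and the CACNA, CACNB and CACNG genes of calcium channel subunits. Of 27011 genes in the table, 142 were such channel genes, after 19 antisense genes and 1 readthrough gene were dropped. Coding genes made up 136 of them, and 6 were non-coding genes with a channel symbol. A gene was tested where it had at least 20 counts in every library. This left 67 channel genes, while 75 fell below, so the statements on change concern fewer than 50% of the family.

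RNA-seq was carried out on HEK293T cells, a human embryonic kidney line that carries the SV40 large T antigen, with 2 biological replicates of WT cells and 2 of Helz-null cells. The Helz-null line was made from the same cells by Cas9 editing of helz, the gene of the RNA helicase HELZ, which binds the CCR4–NOT deadenylase complex. Cells of both groups were otherwise untreated, and the comparison asks which transcripts differ in abundance when HELZ is missing. The null group is 1 edited line, its clonal origin is not given in the sources used here, and other differences between the lines cannot be told apart from the loss of HELZ. The sources do not say what separated the replicates beyond calling them biological, so p-values measure the spread between these libraries.

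Voltage-gated channels open when the membrane depolarizes. Sodium channels drive the upstroke of an action potential, calcium channels admit the calcium that triggers secretion and contraction, and potassium channels bring the membrane back to rest. Each pore is formed by an alpha subunit, and auxiliary subunits set its surface level and gating. HEK293 cells are widely used to express cloned channels because their own voltage-gated currents are small.

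The libraries held between 41745401 and 70464140 counts, and 3 counts in a library, the limit a count of 0 allows, equal 0.0421 to 0.0717 CPM (counts scaled to a library of 1e6), for counting error only. HELZ itself stood at 97.7 and 102 CPM in WT and at 36.1 and 37.0 CPM in Helz-null cells, 2.72-fold lower (log2FC = -1.44, SE 0.04, FDR = 6.36e-30). All 7 markers of the HEK293 line were measurable, with a summed level of 1485 and 1489 CPM in WT and of 1553 and 1571 CPM in Helz-null cells. Of these markers, LHX1 (log2FC = 0.98) and NEFM (0.88) rose, and KRT8 (-0.99), KRT18 (-0.17) and VIM (-0.15) fell. That is 28.6% up and 42.9% down, against 11.4% and 13.0% of all tested genes. VIM made up most of the sum, with a WT mean of 1051 CPM. The summed level therefore does not show whether single markers changed. Of 8 markers of other cell types 2 reached the count minimum, COL1A1 among them, and neither was called, and HBB was at 0 in every library. In bulk RNA, fewer cells with a transcript and less transcript per cell cannot be told apart.

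In Helz-null cells, 13 of the 67 tested channel genes were up-regulated and 4 were down-regulated (FDR < 0.005, edgeR quasi-likelihood test adjusted over all 14397 tested genes). That is 19.4% up and 5.97% down, against 11.4% up and 13.0% down over all tested genes. The up-regulated genes included the calcium channel pores CACNA1H, CACNA1G and CACNA1B, the potassium channel genes KCNN2, KCNN3, KCNH4, KCNIP3, KCNAB2 and KCNMB4, and the sodium channel genes SCN4A and SCN4B. The down-regulated genes were SCN9A, KCNA3, KCNK1 and KCNJ12. The rises of KCNN2 and KCNN3 and the falls of SCN9A and KCNA3 were over 2-fold. The called genes lay on 10 chromosomes.

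**Figure D1:**
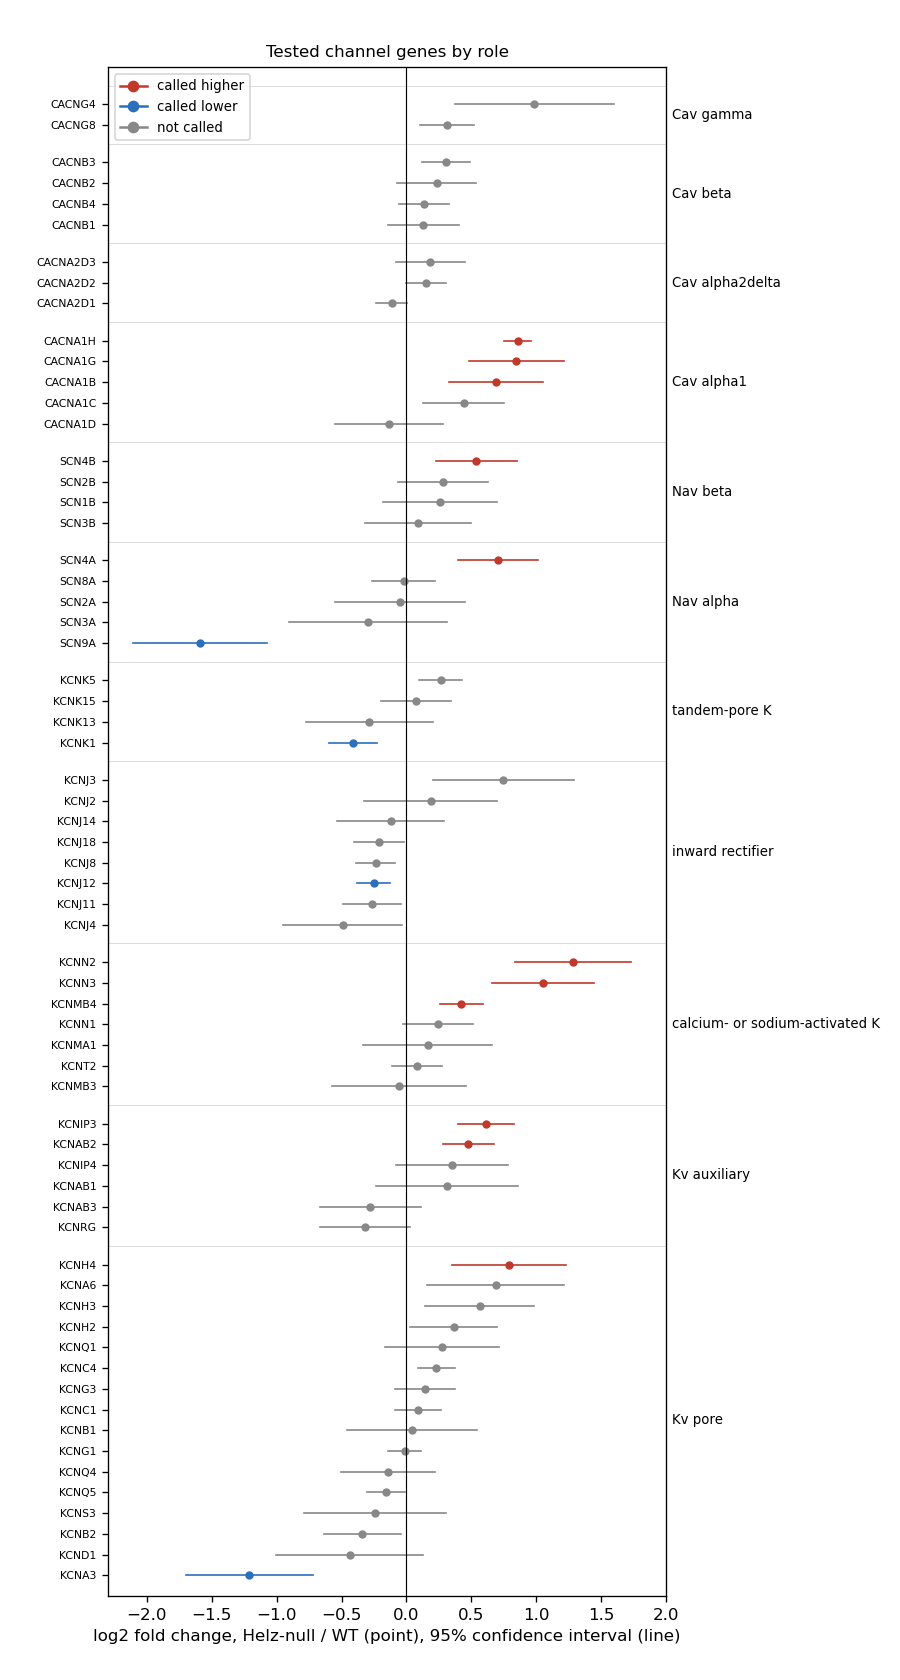
The log2 fold change of Helz-null over WT for 64 tested channel genes, grouped by role, with points for the estimate and lines for the 95% confidence interval. Red marks 11 genes called higher, blue 4 called lower and grey 49 that were not called.

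The median log2FC over the tested channel genes was 0.15, against -0.0016 over all tested genes. The error of the channel median, from the spread of library medians within groups, was 0.11. With 1 library left out that median ranged from 0.10 to 0.22. Of the 67 genes, 42 (62.7%) had a log2FC above 0, against 49.7% of all tested genes. Both Helz-null libraries exceeded both WT libraries in 34 channel genes (50.7%), and both were lower in 17 (25.4%). The corresponding shares over all tested genes were 33.1% and 33.9%. These counts describe the family and were not tested as a set.

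Channel transcripts were scarce, with a median of 3.47 CPM against 29.4 CPM over all tested genes, and the median SE of log2FC was 0.15 among called and 0.17 among uncalled channel genes against 0.06 over all. Of 45 channel genes at 1 to 10 CPM, 9 were up-regulated (20%) and 3 down-regulated (6.67%), where all tested genes of that range gave 6.99% and 5.84%. At 10 CPM or more, 4 of 15 channel genes rose and 1 fell, against 13.5% and 16.3% of all tested genes. None of the 7 channel genes under 1 CPM was called either way by edgeR, where 1.92% and 1.04% of all tested genes were, although CACNG4, KCNA6 and KCNJ3 of that range were higher at FDR < 0.05. The called channel genes had a median absolute log2FC of 0.69, against 0.27 over all called genes. A larger SE raises the log2FC that a call needs. This comparison was not matched for abundance, so it does not show that channel genes change more strongly. Among the 50 genes that were not called, 9 were higher and 1 was lower at FDR < 0.05. At that threshold 22 of the 67 channel genes were higher and 5 lower, where 18.5% and 20% of all tested genes were. Against a fold change of 1.2 rather than 1 (glmTreat), 4 of the 67 channel genes were called higher and 2 lower, where 1.81% and 2.62% of all tested genes were. DESeq2 called 10 higher and 2 lower, where 7.76% and 9.49% of all tested genes were. Among genes with an FPKM above 2 in every library, 4 of 14 channel genes were called higher and 2 lower, where 13.5% and 15.0% of all 10972 such genes were.

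On the FPKM scale, which divides by gene width, 16 of the tested channel genes averaged 2 or more over the 4 libraries and 38 averaged under 1. KCNG1, a silent subunit that modifies other potassium channels, was highest with 11.0 FPKM, and others among the most abundant were KCNJ8 with 7.12, KCNJ12 with 4.69, CACNA1H with 4.65 and KCNK1 with 4.60. KCNMA1, the large-conductance calcium-activated channel, was lowest with 0.0698 FPKM. The summed level of all 142 genes was 102.7 FPKM in WT and 109.9 FPKM in Helz-null cells.

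**Figure D2:**
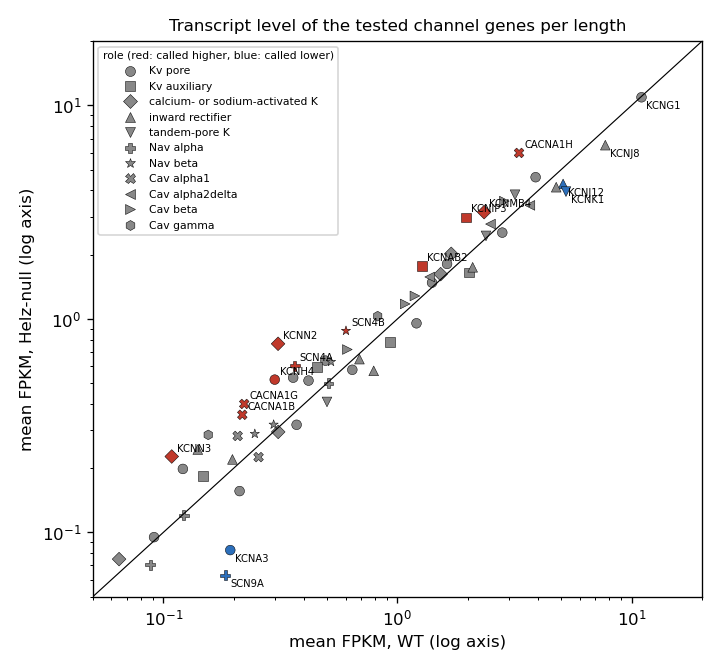
Mean FPKM of 64 tested channel genes in WT cells (x axis, log scale) and Helz-null cells (y axis, log scale), with the line of equal values, the marker shape giving the role and the colour the call. KCNG1, the most abundant at 11.0 FPKM, lies on the line, CACNA1H lies above it, and KCNA3 and SCN9A lie below it at under 0.3 FPKM.

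The pore subunits of voltage-gated calcium channels had 3 of 5 tested genes up-regulated (60%, against 11.4% of all tested genes) and none called lower (against 13.0%), with a median log2FC of 0.69. Their summed level went from 4.24 to 7.30 FPKM. CACNA1H, a pore of the T-type channels that open near resting potential (chromosome 16, 1203106 to 1271771, plus strand, GRCh37), stood at 26.8 and 26.7 CPM in WT and at 48.5 and 48.4 CPM in Helz-null cells. The 2 libraries of a group were nearly equal and the groups were far apart, so that CACNA1H rose 1.81-fold (log2FC = 0.86, SE 0.05, FDR = 3.78e-18), with the lowest FDR of all channel genes.

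CACNA1G, another T-type pore (chromosome 17, 48638076 to 48704835, plus strand), was lower in abundance, at 1.96 and 1.70 CPM in WT against 3.10 and 3.51 CPM in Helz-null cells. The groups did not overlap, and the rise was 1.80-fold (log2FC = 0.85, SE 0.18, FDR = 0.000208). CACNA1B, the pore of the N-type channel of nerve terminals (chromosome 9, 140772234 to 141019076, plus strand), stood at 2.15 and 2.10 CPM in WT and at 3.83 and 3.13 CPM in Helz-null cells. It rose 1.61-fold (log2FC = 0.69, SE 0.18, FDR = 0.00169), with no overlap although its Helz-null libraries lay further apart than those of WT. The CACNA1G call was lost without Helz-null replicate 2 (FDR = 0.0136). The CACNA1B call was lost without WT replicate 1 (FDR = 0.00924), WT replicate 2 (0.00605) or Helz-null replicate 1 (0.0491), and with DESeq2 (adjusted p = 0.014).

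The L-type pores CACNA1C and CACNA1D had a log2FC of 0.44 (FDR = 0.022) and -0.13 (FDR = 0.649), and neither was called. None of the accessory calcium channel subunits that reached the count minimum (4 beta, 3 alpha2delta and 2 gamma) was called, and the others, CACNG6 among them, were not tested. The 4 beta subunits, which carry the pore to the membrane, had log2FC values from 0.13 to 0.30. Among them CACNB3 stood at 9.84 and 8.67 CPM in WT and at 11.7 and 11.3 CPM in Helz-null cells (log2FC = 0.30, 95% interval 0.12 to 0.49, FDR = 0.00744), and CACNB1 at 4.69 and 5.07 against 4.75 and 5.78 CPM (log2FC = 0.13, FDR = 0.477). The first pair of groups was separate and the second overlapped. CACNB3 passed the threshold without WT replicate 1 (FDR = 0.00324), with scaling by library totals (0.00275), without a filter on low counts (0.0045) and with an FPKM above 2 in every library (0.00487).

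The alpha2delta subunits, which promote surface expression, ranged from -0.11 to 0.18 on the log2FC scale, with CACNA2D1 at -0.11 (FDR = 0.136) and CACNA2D2 at 0.15 (FDR = 0.124). Of the gamma subunits, a family that also holds regulators of AMPA-type glutamate receptors, 2 of 8 were tested. CACNG8 had a log2FC of 0.31 (FDR = 0.0148). CACNG4 had one of 0.98 with a wide interval of 0.37 to 1.60 (FDR = 0.00865), from 0.421 and 0.645 CPM in WT against 0.756 and 1.21 CPM in Helz-null cells. CACNG4 passed the threshold without WT replicate 2 (FDR = 0.00378) or without Helz-null replicate 1 (FDR = 0.00251).

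**Figure D3:**
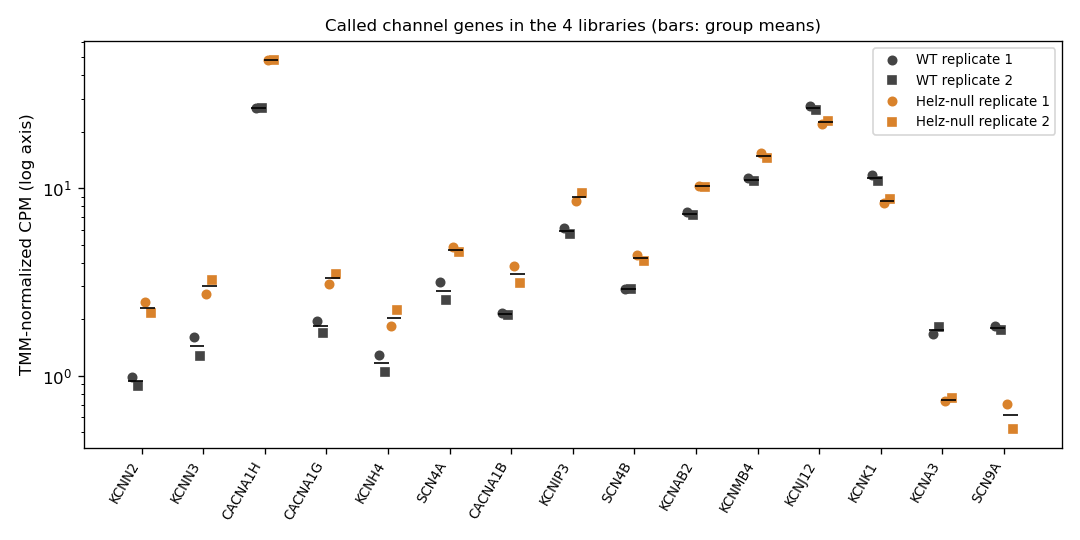
TMM-normalized CPM (log axis) of 15 called channel genes in each library, with WT in dark grey, Helz-null in orange, circles for replicate 1, squares for replicate 2 and bars for group means. The groups do not overlap in any of the 15 genes, which are drawn because they were called. Over all tested genes the groups do not overlap in 33.1% (higher) and 33.9% (lower). The widest gap on this axis is that of SCN9A.

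Of the sodium channel pores, 1 of 6 tested genes rose and 1 fell (16.7% each, against 11.4% and 13.0% of all tested genes). SCN9A, the pore of a channel best known from pain-sensing neurons (chromosome 2, 167051695 to 167232511, minus strand), stood at 1.84 and 1.74 CPM in WT and at 0.709 and 0.519 CPM in Helz-null cells. Both Helz-null libraries were far below both WT libraries, a 3.01-fold fall (log2FC = -1.59, SE 0.26, FDR = 1.91e-06), the largest decrease among the tested channel genes. Its annotated exons overlap those of the antisense gene SCN1A-AS1 over 11.4% of their length, and the counting is not stated to use strand, so reads of the antisense gene in that stretch cannot be told apart from those of SCN9A. SCN4A, the pore of the skeletal muscle channel (chromosome 17, 62015914 to 62050278, minus strand), went the other way. It stood at 3.15 and 2.53 CPM in WT and at 4.84 and 4.57 CPM in Helz-null cells, a rise of 1.63-fold (log2FC = 0.71, SE 0.15, FDR = 0.00024) that missed the threshold without WT replicate 2 (FDR = 0.00561).

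SCN8A, a main pore of central neurons, had a log2FC of -0.022 (FDR = 0.907). Of the 6 tested pores, 5 had a log2FC below 0 (4 with scaling by library totals, where SCN8A was at 0.014), and only SCN9A among these was called. The 4 beta subunits, which are adhesion-type membrane proteins that modulate gating, all had a log2FC above 0, and 1 rose (25%, against 11.4% of all tested genes). SCN4B (chromosome 11, 118004092 to 118023603, minus strand) rose from 2.92 and 2.89 CPM to 4.40 and 4.08 CPM (log2FC = 0.54, SE 0.16, FDR = 0.00464). The groups were separate, but the call lay close to the threshold and was lost with any 1 library left out (FDR = 0.0147 to 0.045) and with DESeq2 (adjusted p = 0.0304). SCN2B had a log2FC of 0.28 (FDR = 0.203).

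Among the pore subunits of voltage-gated potassium channels, 18 of 40 were tested, 3 rose (16.7%, against 11.4% of all tested genes) and 1 fell (5.56%, against 13.0%). KCNH4, an ether-a-go-go-like channel (chromosome 17, 40308909 to 40333160, minus strand), stood at 1.29 and 1.05 CPM in WT and at 1.84 and 2.23 CPM in Helz-null cells, a 1.73-fold rise (log2FC = 0.79, SE 0.22, FDR = 0.00323). This call was lost without WT replicate 1 (FDR = 0.00541), WT replicate 2 (0.0289) or Helz-null replicate 2 (0.108), and with DESeq2 (adjusted p = 0.0399).

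KCNA3, a delayed rectifier best known from T lymphocytes (chromosome 1, 111196182 to 111217562, minus strand), stood at 1.67 and 1.82 CPM in WT and at 0.733 and 0.757 CPM in Helz-null cells. The replicates lay close together and the groups were separate, a 2.32-fold fall (log2FC = -1.21, SE 0.24, FDR = 7.89e-05). KCNQ5, a pore of the M-current that holds neurons below firing threshold, had a log2FC of -0.16 (FDR = 0.0901). KCNC4, a rapidly activating channel, had a log2FC of 0.23 (FDR = 0.00932), which missed the threshold. KCNG1, the most abundant channel transcript per length, had a log2FC of -0.015, with an interval of -0.14 to 0.11 and overlapping groups. Among the rest, KCNH3 and KCNA6 had a log2FC of 0.56 (FDR = 0.0297) and 0.69 (FDR = 0.0349), and KCNB2 one of -0.34 (FDR = 0.0656).

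Of the auxiliary subunits of these potassium channels, 6 of 13 were tested, 2 rose (33.3%, against 11.4% of all tested genes) and none was called lower (against 13.0%). KCNIP3, a calcium-binding protein that acts on A-type channels and also, as DREAM, on transcription (chromosome 2, 95963075 to 96051825, plus strand), stood at 6.10 and 5.71 CPM in WT and at 8.53 and 9.48 CPM in Helz-null cells. The groups were separate, and the rise was 1.53-fold (log2FC = 0.61, SE 0.11, FDR = 1.03e-05). KCNAB2, a cytoplasmic beta subunit related to aldo-keto reductases (chromosome 1, 6050987 to 6161253, plus strand), went from 7.45 and 7.19 CPM to 10.2 CPM in both Helz-null libraries (log2FC = 0.48, SE 0.10, FDR = 0.000113). KCNAB1 and KCNAB3 were at 0.31 (FDR = 0.390) and -0.28 (FDR = 0.270) on the log2FC scale. KCNRG had a log2FC of -0.32 (FDR = 0.140), but 66.8% of its exon length is shared with TRIM13 on the same strand, so its count is uncertain.

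Among the potassium channels opened by intracellular calcium or sodium, 7 of 12 were tested, 3 rose (42.9%, against 11.4% of all tested genes) and none was called lower (against 13.0%). KCNN2, a small-conductance calcium-activated pore that shapes the afterhyperpolarization (chromosome 5, 113391623 to 113832197, plus strand), stood at 0.982 and 0.884 CPM in WT and at 2.46 and 2.16 CPM in Helz-null cells. This 2.43-fold rise was the largest by log2FC among the tested channel genes (1.28, SE 0.22, FDR = 7.8e-06). KCNN3 of the same subfamily (chromosome 1, 154669931 to 154842757, minus strand) stood at 1.61 and 1.27 CPM in WT and at 2.74 and 3.25 CPM in Helz-null cells, a 2.07-fold rise (log2FC = 1.05, SE 0.20, FDR = 2.47e-05). In both genes the lower Helz-null library exceeded the higher WT library.

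KCNN1, the remaining tested member of the small-conductance subfamily, had a log2FC of 0.24 with an interval of -0.03 to 0.51 (FDR = 0.160). KCNMB4, a neuronal beta subunit of the large-conductance channel (chromosome 12, 70760070 to 70828072, plus strand), rose from 11.3 and 10.9 CPM to 15.4 and 14.5 CPM (log2FC = 0.42, SE 0.08, FDR = 4.48e-05). The pore that KCNMB4 modulates, KCNMA1, averaged 1.06 ± 0.25 CPM in WT against 1.23 ± 0.11 CPM without HELZ (SD, 2 libraries each), with a log2FC of 0.16 (FDR = 0.643).

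The inward rectifiers, which hold the resting potential and conduct little on depolarization, had a median log2FC of -0.23. Of 8 tested genes 6 had a log2FC below 0, 1 was called lower (12.5%, against 13.0% of all tested genes) and none was called higher (against 11.4%), and the summed level went from 21.7 to 18.5 FPKM. KCNJ12 (chromosome 17, 21279669 to 21323182, plus strand) stood at 27.3 and 26.0 CPM in WT and at 22.1 and 22.7 CPM in Helz-null cells, a 1.19-fold fall (log2FC = -0.25, SE 0.06, FDR = 0.00121). Its call was lost without WT replicate 1 (FDR = 0.0248), Helz-null replicate 1 (0.0153) or Helz-null replicate 2 (0.00711), and with DESeq2 (adjusted p = 0.0103). The count is uncertain, since KCNJ18 is a near-identical copy. KCNJ18, which has no place in the GRCh37 annotation used here, had a log2FC of -0.21 (FDR = 0.0706).

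KCNJ8, a pore of ATP-sensitive channels, was the most abundant inward rectifier with 7.12 FPKM. It stood at 18.0 and 18.9 CPM in WT and at 15.0 and 16.1 CPM in Helz-null cells (log2FC = -0.24, FDR = 0.0087), groups that did not overlap but missed the threshold. KCNJ11, the other pore of ATP-sensitive channels, had a log2FC of -0.27 (FDR = 0.0539). KCNJ3, a G protein-gated rectifier, was one of 2 tested inward rectifiers with a log2FC above 0, the other being KCNJ2, and stood at 0.748 and 0.621 CPM in WT against 1.35 and 1.04 CPM in Helz-null cells (log2FC = 0.75, FDR = 0.025).

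Of the tandem pore-domain potassium channels, which carry background currents, 4 of 15 were tested and KCNK1 alone was called (25% lower, against 13.0% of all tested genes). KCNK1 (chromosome 1, 233749852 to 233808260, plus strand) stood at 11.8 and 10.9 CPM in WT and at 8.34 and 8.71 CPM in Helz-null cells, a 1.33-fold fall (log2FC = -0.41, SE 0.09, FDR = 0.000389). The 20 nearest tested genes around it had a median log2FC of -0.47, close to its own value, and what the position contributes to its fall was not tested. The call was lost without WT replicate 1 (FDR = 0.0148) or Helz-null replicate 1 (FDR = 0.00543), and with DESeq2 (adjusted p = 0.00573). KCNK5 had a log2FC of 0.26 (FDR = 0.00843, and 0.00275 with scaling by library totals).

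Neighbouring genes were examined in the same way for the 66 tested channel genes with a place in the annotation. Around the 13 up-regulated genes the median log2FC of the nearest tested genes ranged only from -0.10 to 0.10, and around SCN9A, KCNA3 and KCNJ12 it was -0.06, 0.0011 and 0.11. The neighbours were shifted by 0.15 or more for 6 channel genes, of which KCNK1 was the only one called. The others included CACNA1D, CACNA2D2, CACNA2D3 and KCNH2, and KCNH2 had a log2FC of 0.36 beside 0.28 for its neighbours.

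GC content and width of the transcripts were also compared. The up-regulated channel genes had a median transcript GC content of 60.6% (range 44.3% to 66.1%), against 55.2% in the channel genes not called (47 of 50 with a value), 51.1% in the 4 down-regulated ones and 48.7% over all tested genes. Their median gene width was 6272 bases, against 4578 bases in those not called, 7128 bases in the down-regulated genes and 3265 bases over all. These are descriptions, with no test.

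Of the 75 channel genes below the count minimum, 64 had fewer than 20 counts in every library and 18 had none at all. The minimum took in KCNJ3, with 48 and 26 counts in WT and 57 and 74 in Helz-null cells, and KCNA6, with 53 and 26 counts in WT and 48 and 88 in Helz-null cells. It left out KCNJ10, with 33 and 24 counts in WT and 19 and 40 in Helz-null cells, and KCNIP2, with 33 and 18 counts in WT and 24 and 35 in Helz-null cells.

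A minimum in every library also leaves out a transcript that is lost from 1 group. KCNV1, a silent subunit of voltage-gated potassium channels (chromosome 8, 110975865 to 110988000, minus strand), had 29 and 22 counts in WT and none in either Helz-null library. Its level over the WT group, 0.481 CPM, was at least 18.2-fold higher than the 0.0264 CPM that 3 counts over the whole Helz-null group would give. KCNV1, CACNG6 and KCNE2 were named for having at least 20 counts in both libraries of only 1 group. Their values here are therefore a description, with no test in the main fit.

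KCNK2, a mechanosensitive tandem pore-domain channel and chosen after its values were seen, had 16 and 19 counts in WT and none in Helz-null cells. This is at least 12.5-fold lower, also a description with no test in the main fit. The neighbours of KCNV1 and KCNK2 had medians of -0.09 and -0.01 on the log2FC scale.

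The calcium channel gamma subunit CACNG6 went the other way, with 6 and 13 counts in WT and 23 and 50 in Helz-null cells. In CPM these were 0.0936 and 0.311 against 0.544 and 0.701. KCNE2, an auxiliary potassium channel subunit, had 18 and 11 counts in WT and 20 and 33 in Helz-null cells. Exons on the opposite strand overlap 65.4% of its exon length, so its count is uncertain.

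Proteins that work with the channels were counted from lists of names. Of 18 other channels of the same superfamily 6 were tested, and 1 rose (16.7%, against 11.4% of all tested genes). This was HCN2, a pacemaker channel, with 21.1 and 19.5 CPM in WT against 29.5 and 33.8 CPM in Helz-null cells (log2FC = 0.64, SE 0.07, FDR = 4.19e-11), beside a neighbour median of 0.19. Of 22 partner proteins 10 were tested, and 3 rose (30%, against 11.4% of all tested genes) and none was called lower (against 13.0%). FGF12, with 79 and 51 counts in WT and 2 and 5 in Helz-null cells, lay below the count minimum and is not among those tested. The 3 that rose were ABCC8, the sulphonylurea receptor of ATP-sensitive channels (log2FC = 0.64, FDR = 0.00301), the membrane adaptor ANK2 (log2FC = 0.28, FDR = 0.000413) and NEDD4L, a ubiquitin ligase that removes sodium channels from the membrane (log2FC = 0.42, FDR = 1.62e-06). DESeq2 called 2 of the 10 higher (against 7.76% of all tested genes). Against a fold change of 1.2, 0 of the 10 were called higher (against 1.81%). Without Helz-null replicate 1, only NEDD4L remained called (ABCC8 FDR = 0.0724, ANK2 FDR = 0.00828), and ABCC8 was also lost without WT replicate 1 (FDR = 0.00529) or WT replicate 2 (FDR = 0.021).

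Of 17 pumps and exchangers 12 were tested, 2 rose (16.7%, against 11.4% of all tested genes) and none was called lower (against 13.0%). SLC8A1, with 418 and 300 counts in WT and 2 and 6 in Helz-null cells, likewise lay below the minimum. ATP2B4, a plasma membrane calcium pump, rose with a log2FC of 0.53 (FDR = 2.88e-15). Without WT replicate 1 or without Helz-null replicate 2, 1 gene of the list was called higher.

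REST, a repressor of neuronal genes that binds the control regions of many channel genes, and its corepressors were all tested, 12 of 12. REST stood at 53.8 and 56.6 CPM in WT and at 46.3 and 48.2 CPM in Helz-null cells (log2FC = -0.22, FDR = 0.000168, and 0.00618 without Helz-null replicate 1). HDAC2 (log2FC = -0.29, FDR = 4.95e-11) and SIN3A (log2FC = -0.23, FDR = 8.72e-07, beside neighbours at -0.44) were also called lower, and no gene of the list was called higher. These 3 of 12 (25%) stand against 13.0% lower and 11.4% higher over all tested genes, and 16.3% lower among those at 10 CPM or more. What these levels have to do with the channel genes was not tested.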

How the data were processed

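Deposited was 1 table of counts per gene for the 4 libraries, which the authors made from reads aligned to hg19; the tools named per the labels are Bowtie2, TopHat2 and edgeR. How mates, strand and multi-mapping reads were counted is not given in the sources used here. The authors' table of their own comparison, which holds log2FC, log CPM, p-values and FDR, was not used.

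The channel genes and all lists were chosen with earlier results of these data known. Counts were fitted in edgeR 4.0.16 (R 4.3.3) with TMM scaling (factors 0.987 to 1.01) by the quasi-likelihood test over all 14397 genes with at least 20 counts in every library, which held 99.9% of counts, and a gene was called at FDR < 0.005 (Benjamini-Hochberg). CPM were divided by the TMM-scaled totals, and FPKM also by the deposited gene width. The SE of a log2FC was taken as its absolute value over the square root of the quasi-likelihood F, and the 95% interval from that SE. The biological coefficient of variation was 2.72%, and replicates differed by more than counting noise (chi-square per degree of freedom 3.68 in WT and 2.78 in Helz-null). Genes named were all called channel genes, the 2 most abundant of each role, those with at least 20 counts in both libraries of one group and fewer in both of the other, 2 on each side of the count minimum, HELZ, and called genes of the lists. A few genes that this rule takes in are counted but not reported here by name or drawn. Other genes named, SLC8A1 and FGF12 among them, were chosen after their values were seen. Positions, exon overlaps and the 10 nearest tested genes on each side came from GENCODE 44 on GRCh37, in which the symbols of 13159 tested genes were found, 711 more under an older name, and 527 were not. The fit was tested on simulated counts of 14397 genes for this comparison, drawn with the fitted dispersion. It recovered 82 of 100 genes changed by 0.5 and 95 of 100 changed by 1 (log2), and called 0 of 14197 unchanged genes. The changed genes were drawn from all tested genes, with a median of 29.4 CPM against 3.47 CPM in tested channel genes. Recovery at the level of the channel genes was not measured. Alternatives were DESeq2 1.42.0, other scalings, filters and thresholds, a replicate block, and leaving out each library in turn.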

Additional observations from a re-analysis of the deposited data

How the results depend on the processing

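The 13 up-regulated and 4 down-regulated channel genes became 10 and 2 with DESeq2, 4 and 2 with an FPKM above 2 in every library (which left 14 channel genes to test), 4 and 2 against a fold change of 1.2, and 22 and 5 at FDR < 0.05. With 1 library left out, 9 to 12 were up-regulated and 2 to 4 down-regulated, among 1059 to 1565 and 1296 to 1755 of all tested genes, with 2 down-regulated without WT replicate 1 or Helz-null replicate 1. An arm left with 1 library was assumed to vary like the other. CACNA1H, KCNN2, KCNN3, SCN9A and KCNA3 kept their calls under each alternative in which they were tested. The median log2FC of the channel genes ranged from 0.072 to 0.22. Scaling by library totals alone moved the median of all genes from -0.0016 to 0.035. The share of calls that were up went from 46.7% to 61.3%. That scaling gave 16 and 3 channel genes, without KCNJ12, among 2261 and 1428 of all 14397 tested genes. The filterByExpr minimum ended the calls of KCNH4 and SCN4B, and a minimum on the mean count that of KCNH4. With filterByExpr 12 of 87 channel genes were called higher and 6 lower, among 1581 and 1854 of 16087 genes. Without a filter on low counts these were 15 and 6 of 124, among 1774 and 2027 of 20904 genes. Values near 0 changed sign: KCNG1 was at 0.022 and SCN8A at 0.014 with library totals, and with 1 library left out KCNG1 ranged from -0.058 to 0.026 and CACNB1 from -0.034 to 0.25. The cause was not tested. HELZ was lower in every alternative. Same-numbered libraries shared only a number (correlation of their deviations 0.0122). With the replicate number as a block, 15 channel genes were called higher and 5 lower, with all 17 calls kept, among 1845 and 2037 genes, and CACNB3 (FDR = 0.003) and KCNJ8 (FDR = 0.00429) passed the threshold. The count minimum in every library left 75 channel genes out of the main fit. Without a filter on low counts, KCNV1 (FDR = 1.27e-07) and KCNK2 (FDR = 3.02e-05) were called lower and CACNG6 (FDR = 0.00159) higher. KCNE2 was not called (FDR = 0.271). These genes were picked by their counts, so these FDR values are a description. For the rest of the 75 genes no change is stated.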

Other observations

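Among the listed partner proteins and exchangers, SLC8A1 and FGF12 were left out by the count minimum. Both were chosen after their values were seen, so the values are a description, with no test in the main fit. SLC8A1, the sodium-calcium exchanger that expels calcium from excitable cells (chromosome 2, 40324410 to 40838193, minus strand, GRCh37), had 418 and 300 counts in WT and 2 and 6 counts in Helz-null cells. In CPM these were 6.52 and 7.17 against 0.0473 and 0.0842, beside a median log2FC of 0.02 among its neighbours.

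FGF12, an intracellular protein that binds sodium channel tails (chromosome 3, 191857179 to 192485553, minus strand), had 79 and 51 counts in WT and 2 and 5 counts in Helz-null cells. In CPM these were 1.23 and 1.22 against 0.0473 and 0.0701, and its neighbours had a median log2FC of -0.05. In each gene the higher Helz-null library lay far below the lower WT library.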
